A study of Mus musculus with 12 samples.

Results

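The subject is how loss of the hepatic glucose transporter alters the response of the liver to a meal. It was measured as the interaction of genotype and feeding, that is, the difference between refed and fasted livers in LG2KO mice minus the same difference in controls. All 12 arrays of the series enter this comparison, 3 in each of 4 groups, and each array carries a pool of liver RNA from 3 animals. The groups are control fasted, control refed (fasted, then fed again), LG2KO fasted and LG2KO refed, all on the strain background labelled SV129XC57Bl/6. LG2KO mice are labelled as tamoxifen treated and controls carry no such label, so genotype and tamoxifen cannot be told apart. The name LG2KO is not spelled out in the labels and is read here as a liver knockout of Glut2, the glucose transporter encoded by Slc2a2. For the LG2KO fasted arrays the source name speaks of refeeding, but title and diet put them in the fasted state, and that assignment was kept. What drives the recombinase, and the mice's age, sex and feeding times, were not given in the labels.

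In the fed liver, glucose enters hepatocytes through Glut2 and is phosphorylated, and the resulting sugar phosphates activate the transcription factor ChREBP, which raises genes of glycolysis and of fatty acid synthesis. Insulin acts beside it through SREBP1c on fatty acid synthesis, while SREBP2 drives cholesterol synthesis when membranes are low in sterol. Fasting reverses these programmes and turns on fat oxidation and glucose release. An interaction below 0 on the log2 scale means that the response to refeeding was lower in LG2KO than in control livers, and one above 0 that it was higher.

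Slc2a2, the targeted gene, was at a log2 level of 10, 11.08 and 10.82 on the control fasted arrays and 10.66, 11.30 and 10.90 on the control refed arrays. It stood at 4.02, 4.13 and 3.56 on the LG2KO fasted arrays and 3.79, 3.64 and 3.80 on the LG2KO refed arrays. These levels fit the genotype labels of all 12 arrays. They cannot check the feeding labels, since fasted and refed levels were close in each genotype. The defining markers of hepatocytes were near the top of the arrays, with a median percentile of 99.9 among all genes. Arrays of a group had correlations of 0.984 to 0.996 over probe sets. Control refed replicate 1 and LG2KO fasted replicate 3 stood apart from the rest, and without them no correlation within a group was below 0.994. Each result below was therefore also computed on the 10 arrays without that pair, and where the pair matters both values are given. A lower signal in these bulk samples may be fewer cells of a type or less RNA per cell, which cannot be told apart.

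Many genes moved in the same direction with refeeding in both genotypes. In controls 1176 of 18194 genes passed (6.46%, adjusted p below 0.05 in limma), 599 higher (3.29%) and 577 lower (3.17%) after refeeding. In LG2KO livers 1283 passed (7.05%), 847 higher (4.66%) and 436 lower (2.4%). These comparisons use separate arrays, and 676 genes passed in both in the same direction, which is 57.5% of the control calls and 52.7% of the LG2KO calls. Of these, 392 were higher and 284 lower after refeeding in both, and the median ratio of the LG2KO to the control response among them was 1.0. Passing in both favours genes with responses of similar size, so that ratio does not describe the other genes. A further 499 genes passed only in controls and 606 only in LG2KO livers. Without the pair, the genes shared in direction were 66.5% of the control calls and 45.9% of the LG2KO calls. A single gene, Pklr, passed in both in opposite directions. On the 10 arrays 3 genes did, adding Gpd2 (0.76 in controls and -0.41 in LG2KO livers) and Hsd17b7 (0.49 and -0.58), whose interactions did not pass there (adjusted p = 0.118 and 0.141). Across all genes the responses of the genotypes had a Pearson r of 0.684 and a Spearman rho of 0.482, given as a description because genes on shared arrays are not independent.

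The difference between the responses passed for 1 of 18194 genes (0.0055%), which was again Pklr. An unadjusted p below 0.05 was reached by 861 genes (4.73%), 642 with a higher response in LG2KO livers (3.53%) and 219 with a lower one (1.2%). Without the pair of arrays the count that passed was again 1, and it was Pklr. The unadjusted split then was 741 higher (4.07%) and 782 lower (4.3%), so the surplus on the higher side was seen with the pair and not without it. A response called in controls was smaller in LG2KO livers for 836 of 1176 genes (71.1%). The mirror count was of the same size, since a response called in LG2KO livers was smaller in controls for 945 of 1283 genes (73.7%). Both counts are high on the side that did not choose the genes, so neither shows a general blunting.

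Responses were sorted by the interaction and its 95% confidence interval. Of the 676 genes with the same direction in both, 421 were kept (62.3%), meaning that the whole interval lay within a 1.5-fold difference either way, 258 of them higher and 163 lower after refeeding. That is 2.31% of all genes. Another 255 had wider intervals and stayed undecided, and 607 of the 676 lay within 2-fold. No gene was blunted, meaning a response called in controls that was smaller in LG2KO livers, with an interaction that passed. A call in LG2KO livers was not required, and reversed genes were counted apart. None was stronger, meaning a response called in LG2KO livers that was larger than in controls, with an interaction that passed. At an unadjusted p below 0.05 there were 861 interactions (4.73% of all genes). One gene, Pklr, was reversed. Leaving out the pair gave 2202 control calls (12.1%), 3187 LG2KO calls (17.5%) and 929 kept genes, of which 374 were kept in both fits. The control count was 706 without control fasted replicate 1, 747 without control fasted replicate 2, 758 without control refed replicate 2 and 742 without control refed replicate 3. The LG2KO count was 716 without LG2KO fasted replicate 1, 770 without LG2KO fasted replicate 2, 713 without LG2KO refed replicate 2 and 697 without LG2KO refed replicate 3. The kept count was 644 without control refed replicate 1, and 243 to 280 without any one of control fasted 1, 2 or 3, control refed 2 or 3, LG2KO fasted 1 or 2 and LG2KO refed 2 or 3.

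**Figure D1:**
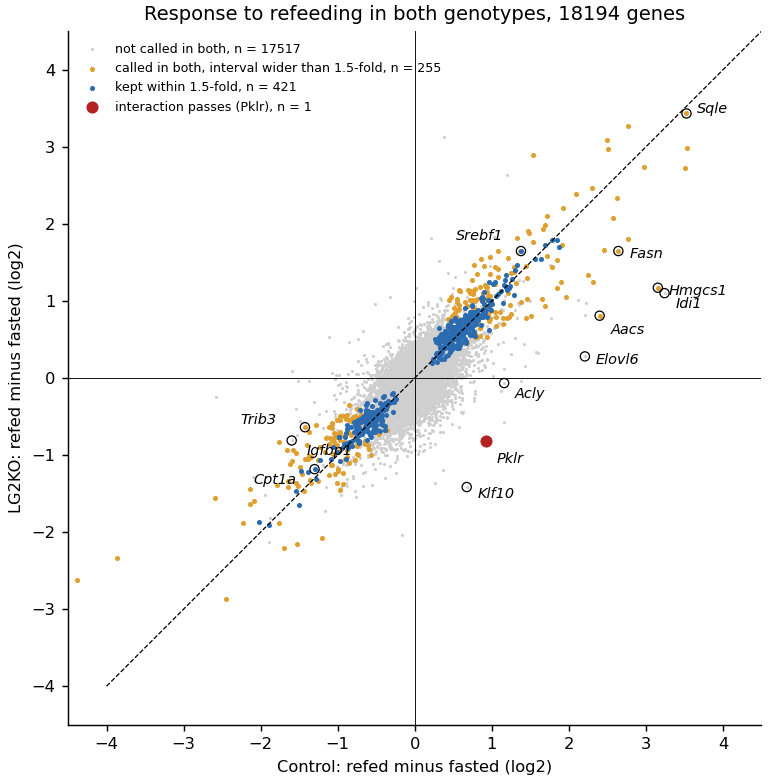
Response to refeeding (refed minus fasted, log2) in control livers on the horizontal axis and LG2KO livers on the vertical axis, 1 point per gene, with the line of equal responses dashed, Pklr in red and 12 other named genes ringed. Most coloured points, which are genes called in both genotypes, follow the dashed line, and Pklr lies in the quadrant of higher in controls and lower in LG2KO.

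Pklr encodes the liver-type pyruvate kinase, the last enzyme of glycolysis and a textbook target of ChREBP. Its log2 level was 8.82, 8.73 and 9.02 on the control fasted arrays and 9.57, 9.92 and 9.85 on the control refed arrays. In LG2KO livers it was 10.71, 10.70 and 10.91 fasted and 9.83, 9.97 and 10.05 refed. All 3 control refed arrays thus lay above the control fasted arrays, while all 3 LG2KO refed arrays lay below the LG2KO fasted ones. Pklr rose 1.90-fold with refeeding in controls (log2 0.92 ± 0.12 SE, adjusted p = 0.000387). In LG2KO livers it fell by 0.82 ± 0.12 on the log2 scale (adjusted p = 0.000982). The interaction was -1.75 ± 0.16 (95% interval -2.10 to -1.39, adjusted p = 0.0024), and -1.79 ± 0.14 without the pair (adjusted p = 0.00094). The genotypes differed in the fasted state, where Pklr was 3.78-fold higher in LG2KO livers (log2 1.92 ± 0.12, adjusted p = 7.41e-06), and after refeeding the difference was 0.17 ± 0.12 (adjusted p = 0.714). The other 2 probe sets of the gene had interactions of -1.46 and -1.50. Over all genes, 9 (0.0495%) had control arrays that moved up and LG2KO arrays that moved down without overlap, and 52 (0.286%) the opposite.

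The upstream sequence of Pklr is shown because the interaction turns on this gene and because ChREBP is known to bind paired E-box-like elements in its liver promoter. The form searched was CACGNG, 5 bases of any kind and CNCGTG, which reads the same on both strands, in the 250 bases before each start in the RefSeq promoter table (build GRCm38.p6). Of the 2 starts listed for Pklr, the one at chr3:89136373-89136622 (plus strand) holds it, from 170 to 154 bases before the start, marked in capitals:

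Pklr: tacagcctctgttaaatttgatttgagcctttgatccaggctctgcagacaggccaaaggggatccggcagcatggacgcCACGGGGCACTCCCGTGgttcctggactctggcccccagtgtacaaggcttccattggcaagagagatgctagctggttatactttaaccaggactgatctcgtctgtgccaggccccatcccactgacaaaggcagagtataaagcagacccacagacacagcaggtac

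Of the genes in that table, 12 of 27025 (0.0444%) hold this form, and Pklr is the only one of the 15 ChREBP-linked genes with an entry that does. A match is a description of the letters and not a measured site.

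Genes that handle fructose and glucose metabolites next to Pklr were described by the same comparison. The 15 measured genes of the glycolysis and glucokinase list had a median interaction of -0.055, with 8 below 0 (background 45.2%) and 7 above it. At an unadjusted p below 0.05, 1 of them, Pklr, was below 0 (background 1.2%) and 0 were above it (background 3.53%). Without the pair the median was -0.067, with 9 below 0 and 3 of these at that unadjusted level (background 4.3%). The genes named next are single examples. Tkfc, the triokinase of fructose breakdown, was at 9.09, 8.80 and 9.16 on control fasted arrays and 9.56, 9.69 and 9.64 on control refed arrays. In LG2KO livers it was at 10.39, 10.55 and 10.88 fasted and 10.03, 10.15 and 10.26 refed. As for Pklr, the refed arrays lay above the fasted ones in controls and below them in LG2KO livers, with no overlap. The control response of Tkfc was 0.61 ± 0.13 (adjusted p = 0.0141) and the LG2KO response -0.46 ± 0.13 (adjusted p = 0.0542). Its interaction of -1.07 ± 0.18 did not pass (adjusted p = 0.174). The control call was lost without control fasted replicate 2 (0.50, adjusted p = 0.0665), control refed replicate 2 (0.58, 0.0585) or control refed replicate 3 (0.60, 0.0503). Khk, ketohexokinase, which starts fructose breakdown, was higher in LG2KO livers in the fasted state by 1.0 ± 0.08 (adjusted p = 0.000152). Its responses to refeeding were 0.19 ± 0.08 in controls and -0.20 ± 0.08 in LG2KO livers, with an interaction of -0.39 ± 0.12 (adjusted p = 0.714). G6pc, the catalytic subunit of glucose-6-phosphatase, fell in LG2KO livers by 1.05 ± 0.15 (adjusted p = 0.00117), while its control response was -0.23 ± 0.15 (adjusted p = 0.542). The difference between them, -0.82 ± 0.21, did not pass (adjusted p = 0.574). Txnip, a glucose-responsive arrestin that restrains glucose uptake, fell in both genotypes, in controls by 0.57 ± 0.13 (adjusted p = 0.0191) and in LG2KO livers by 1.0 ± 0.13 (adjusted p = 0.000569), and its interaction was -0.43 ± 0.18 (adjusted p = 0.99). The control call of Txnip was lost with the mean of its probe sets (-0.51, adjusted p = 0.0566) and without control fasted replicate 1 (-0.60, 0.0525), control fasted replicate 2 (-0.46, 0.0875), control refed replicate 2 (-0.52, 0.0833) or control refed replicate 3 (-0.52, 0.0796). Klf10, a ChREBP-responsive repressor, had a wide interaction of -2.09 ± 0.54 (adjusted p = 0.574).

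Of the 18 measured ChREBP-linked genes, 13 had an interaction below 0, against 45.2% of all genes, and the median was -0.22, against 0.02 over all genes. The list counts Slc2a2, the deleted gene (interaction -0.48), and without it 12 of 17 were below 0 with a median of -0.20. Only Pklr passed, while 7 were below 0 (background 1.2%) and 1 was above it (background 3.53%) at an unadjusted p below 0.05. Without the pair, 7 of 18 were below 0 (background 4.3%) and 1 above it (background 4.07%) at that level. Leaving out Slc2a2 as well gave 6 and 1 of 17. The median was -0.29 without the pair, -0.35 without control fasted replicate 2, -0.30 without control refed replicate 1 and -0.32 without LG2KO refed replicate 2. On all 12 arrays the 1 gene above 0 at that unadjusted level was Pnpla3, a lipid droplet protein. It was at 5.39, 5.41 and 5.31 in control fasted and 5.36, 5.42 and 5.67 in control refed livers. In LG2KO livers it was at 5.60, 5.41 and 5.77 fasted and 6.49, 6.27 and 6.78 refed. It rose in LG2KO livers by 0.92 ± 0.15 (adjusted p = 0.00245), with a control response of 0.11 ± 0.15 and an interaction of 0.81 ± 0.21 (adjusted p = 0.574). Angptl8, a secreted regulator of lipoprotein lipase on the same list, rose in both genotypes, by 2.97 and 2.73.

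For fatty acid synthesis the genes that passed between genotypes did so in the fasted state. Among its 21 measured genes, refeeding raised 10 in controls (background 3.29%) and 3 in LG2KO livers (background 4.66%). Without the pair these were 12 and 5 (backgrounds 1152 and 1408 of 18194 genes raised). In the fasted state 9 were higher in fasted LG2KO than in fasted control livers (background 0.308%) and 0 passed after refeeding (background 0.379%). At an unadjusted p below 0.05, 1661 of all genes differed after refeeding (9.13%). The comparisons of genotype and of feeding share arrays with the interaction, so their values are given side by side and are not independent of it. No gene of this list passed the interaction. Its median interaction was -0.37, and 16 of 21 members were below 0 (background 45.2%). At an unadjusted p below 0.05, 9 were below 0 (background 1.2%) and 0 above it (background 3.53%). Without the pair these were 11 (background 4.3%) and 1 (background 4.07%). The median was -0.43 without the pair, -0.52 without control refed replicate 1 and -0.26 without LG2KO refed replicate 2.

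Acly, ATP citrate lyase, which makes cytosolic acetyl-CoA, was at 9.56, 9.62 and 9.93 in control fasted and 10.71, 10.84 and 11.04 in control refed livers. In LG2KO livers it was at 10.63, 11.06 and 10.82 fasted and 10.78, 10.65 and 10.89 refed. All 3 fasted LG2KO arrays lay above the fasted control arrays and overlapped both refed groups. Acly rose by 1.16 ± 0.13 in controls (adjusted p = 0.000206), its LG2KO response was -0.07 ± 0.13 (adjusted p = 0.904), and the interaction was -1.23 ± 0.19 (adjusted p = 0.13).

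Aacs, acetoacetyl-CoA synthetase, which feeds ketone carbon into lipid synthesis, rose in both genotypes, by 2.40 ± 0.15 in controls (adjusted p = 3.99e-06) and by 0.81 ± 0.15 in LG2KO livers (adjusted p = 0.0067). Its levels were 7.23, 7.55 and 7.43 in control fasted, 9.62, 10.12 and 9.68 in control refed, 8.56, 8.79 and 8.56 in LG2KO fasted and 9.32, 9.33 and 9.68 in LG2KO refed livers. The interaction of -1.59 ± 0.21 did not pass over genes (adjusted p = 0.0646), nor without the pair (-1.72, adjusted p = 0.0777). Mid1ip1, an activator of acetyl-CoA carboxylase, was at 8.95, 9.11 and 8.88 in control fasted and 11.25, 11.37 and 11.06 in control refed livers, and at 9.96, 10.13 and 10.08 in LG2KO fasted and 11.36, 11.52 and 11.30 in LG2KO refed livers. It rose by 2.24 ± 0.10 and 1.33 ± 0.10, with an interaction of -0.91 ± 0.14 (adjusted p = 0.13). Both genes started from a higher fasted level in LG2KO livers, by 1.23 ± 0.15 and 1.08 ± 0.10, and both refed groups overlapped.

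Elovl6, which lengthens palmitate, was at 5.91, 6.41 and 6.79 in control fasted, 8.92, 8.62 and 8.19 in control refed, 8.74, 8.40 and 7.91 in LG2KO fasted and 8.32, 8.62 and 8.94 in LG2KO refed livers. Its response was 2.21 ± 0.27 in controls (adjusted p = 0.000329) against 0.28 ± 0.27 in LG2KO livers (adjusted p = 0.716), and the interaction was -1.93 ± 0.38 (adjusted p = 0.265). Thrsp, a lipogenic regulator known as Spot14, was at 11.72, 10.91 and 12.11 in control fasted and 12.85, 13.18 and 12.82 in control refed livers, and at 13.34 to 13.44 on all 6 LG2KO arrays. All 6 LG2KO arrays thus lay above every control array, and the interaction was -1.41 ± 0.30 (adjusted p = 0.407). Me1, malic enzyme, a source of NADPH, rose in controls by 0.62 ± 0.12 (adjusted p = 0.00822), with an LG2KO response of -0.29 ± 0.12 (adjusted p = 0.22) and an interaction of -0.91 ± 0.17 (adjusted p = 0.261). Acaca, acetyl-CoA carboxylase, had responses of 0.94 ± 0.11 and 0.24 ± 0.11 and an interaction of -0.70 ± 0.16 (adjusted p = 0.409).

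Fasn, fatty acid synthase, rose in both genotypes but was not among the kept genes. It was at 9.05, 9.09 and 8.80 in control fasted, 11.28, 11.95 and 11.64 in control refed, 10.09, 10.32 and 10.33 in LG2KO fasted and 11.77, 11.79 and 12.12 in LG2KO refed livers. It rose by 2.64 ± 0.16 in controls (adjusted p = 2e-06) and by 1.65 ± 0.16 in LG2KO livers (adjusted p = 5.86e-05), and the interaction of -1.0 ± 0.22 did not pass (adjusted p = 0.409). Srebf1, which encodes the SREBP1 factors, rose by 1.38 ± 0.10 and 1.65 ± 0.10, with an interaction of 0.27 ± 0.14 (adjusted p = 0.99), and was among the kept genes on 12 arrays though not on 10. Its level was higher in LG2KO than in control livers on every array of the same feeding state. Scd1, stearoyl-CoA desaturase, passed in neither genotype.

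**Figure D2:**
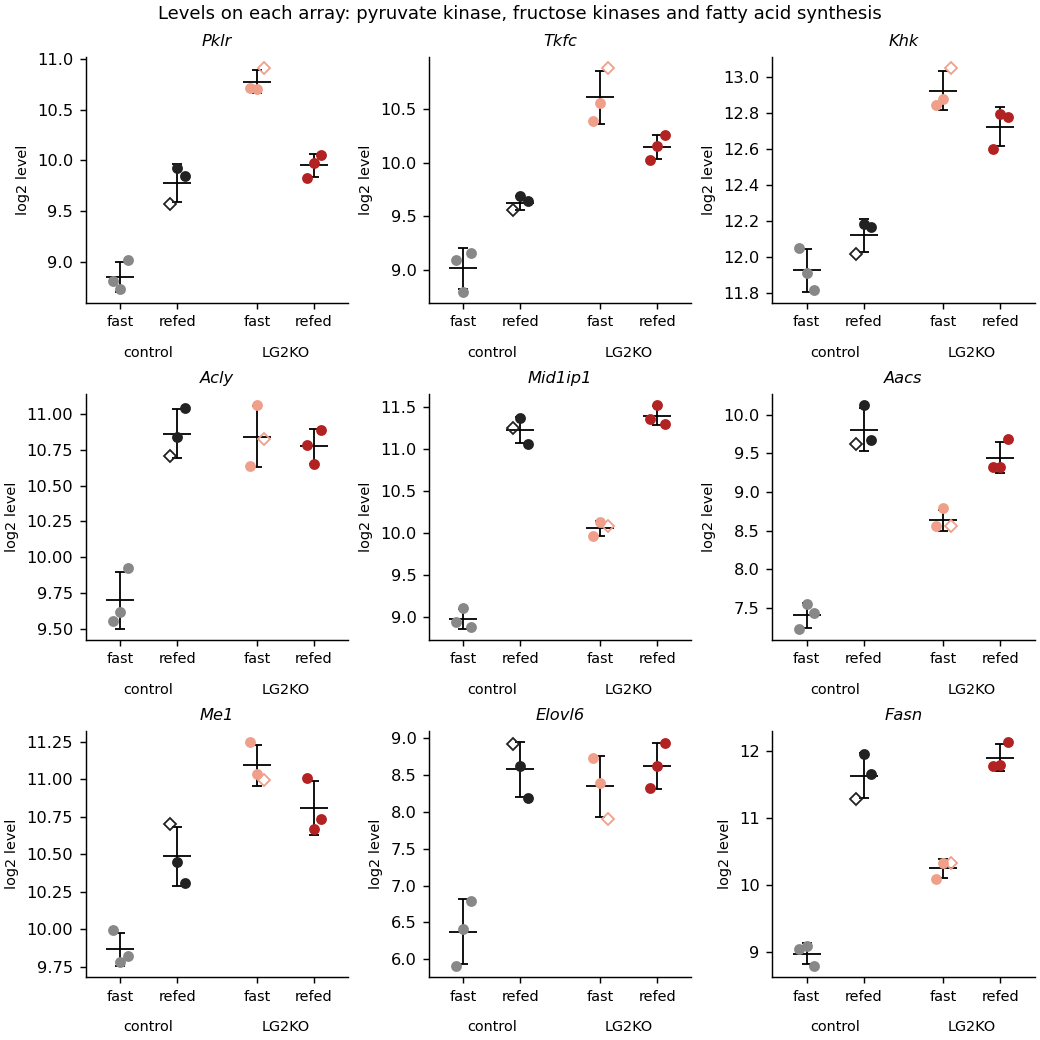
Log2 level on each array for 9 genes, with control and LG2KO groups fasted and refed along the horizontal axis. Bars mark the mean and SD of 3 arrays, and open diamonds are control refed replicate 1 and LG2KO fasted replicate 3. Pklr and Tkfc go up with refeeding in controls and down in LG2KO livers, and in all 9 panels the fasted LG2KO arrays lie above the fasted control arrays.

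Cholesterol synthesis genes rose with refeeding in both genotypes, and the responses were mostly smaller in LG2KO livers as measured, though no single difference passed. Of 17 measured genes, 15 rose in controls (background 3.29%) and 13 in LG2KO livers (background 4.66%), with median responses of 2.32 and 1.17. The median interaction was -0.67, 15 of 17 genes were below 0 (background 45.2%) and none passed. At an unadjusted p below 0.05, 5 were below 0 (background 1.2%). Without the pair the median was -1.07 and 14 reached that unadjusted level (background 4.3%). Here the genotype difference passed for single genes only in the refed state, where 6 were lower in LG2KO livers (background 0.0879%). In the fasted state 0 passed (background 0.396%, with 946 genes, 5.2%, at an unadjusted p below 0.05). Without the pair, 12 were lower after refeeding (background 0.126%). The list was lower in LG2KO livers in both states, with a median genotype difference of -0.47 fasted and -1.22 refed. Its mean level was 7.90 to 8.30 on LG2KO fasted arrays, below the 8.43 to 8.98 on control fasted arrays.

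Hmgcs1, the cytosolic HMG-CoA synthase that starts the mevalonate pathway, was at 7.44, 8.50 and 7.96 in control fasted and 11.06, 11.27 and 11.04 in control refed livers. In LG2KO livers it was at 8.12, 7.70 and 7.17 fasted and 8.55, 8.56 and 9.39 refed. The fasted groups overlapped and the refed groups did not. Its response was 3.16 ± 0.30 in controls (adjusted p = 5.22e-05) and 1.17 ± 0.30 in LG2KO livers (adjusted p = 0.0316), and the interaction was -1.98 ± 0.42 (adjusted p = 0.369). The LG2KO call was lost without LG2KO fasted replicate 2 (1.19, adjusted p = 0.089), LG2KO fasted replicate 3 (0.92, 0.083), LG2KO refed replicate 2 (1.31, 0.0553) or LG2KO refed replicate 3 (0.89, 0.143). After refeeding Hmgcs1 was lower in LG2KO livers by 2.29 ± 0.30 (adjusted p = 0.0103), and without control refed replicate 2 this was 2.22 lower (adjusted p = 0.0518).

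Idi1, isopentenyl-diphosphate isomerase, was at 5.86, 6.97 and 6.58 in control fasted, 10.30, 9.66 and 9.18 in control refed, 6.14, 6.05 and 5.58 in LG2KO fasted and 6.61, 7.19 and 7.26 in LG2KO refed livers. Its response was 3.24 ± 0.32 in controls (adjusted p = 6.64e-05) and 1.10 ± 0.32 in LG2KO livers (adjusted p = 0.0576), and the interaction of -2.14 ± 0.45 did not pass (adjusted p = 0.369). Among the enzymes of the same pathway, Sqle, squalene epoxidase, responded alike in size, by 3.53 ± 0.38 and 3.43 ± 0.38. Its interaction was -0.09 with a standard error of 0.53, a span that leaves room for a difference of more than 2-fold either way. Sqle was at 7.24, 8.56 and 7.22 in control fasted, 10.71, 11.52 and 11.38 in control refed, 6.38, 6.62 and 5.75 in LG2KO fasted and 9.63, 9.20 and 10.23 in LG2KO refed livers, so its LG2KO arrays were lower in both states. Among other members, interactions were -0.96 for Cyp51, -0.80 for Msmo1, -0.78 for Fdps and -0.55 for Mvd, none of which passed, and 2 genes of the list were above 0.

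The 11 measured genes of sterol uptake and SREBP2 control were mixed, with interactions from -0.73 to 0.48, a median of 0.24 and 3 below 0. None passed, and at an unadjusted p below 0.05, 0 were below 0 and 2 above it (backgrounds 1.2% and 3.53%). Without the pair the median was 0.06, and 2 were below 0 and 2 above it at that level (backgrounds 4.3% and 4.07%). Insig1, which holds the SREBP precursors in the endoplasmic reticulum, rose by 1.93 ± 0.23 and 2.21 ± 0.23, with an interaction of 0.28 ± 0.33 (adjusted p = 0.99). Srebf2 had responses of 0.53 ± 0.13 (adjusted p = 0.0311) and 0.60 ± 0.13 (adjusted p = 0.016). Its control call was lost without any one of control fasted 1, 2 or 3 and control refed 2 or 3 (0.43 to 0.58, adjusted p 0.06 to 0.134). The LG2KO call was lost without LG2KO fasted replicate 1 or 2 or LG2KO refed replicate 1 or 3 (0.52 to 0.60, adjusted p 0.0508 to 0.0809).

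The upstream bases of Hmgcs1 are shown as an example of a promoter with a sterol element. The letters TCACNCCAC, on either strand, occur from 137 to 129 bases before its start in the window chr13:119690101-119690350 (plus strand, GRCm38.p6, RefSeq), marked in capitals:

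Hmgcs1: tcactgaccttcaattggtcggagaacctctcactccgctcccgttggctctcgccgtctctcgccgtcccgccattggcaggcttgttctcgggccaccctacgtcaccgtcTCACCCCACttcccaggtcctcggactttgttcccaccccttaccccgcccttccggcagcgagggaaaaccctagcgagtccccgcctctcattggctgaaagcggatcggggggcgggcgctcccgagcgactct

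Of all genes in the table, 331 of 27025 (1.22%) hold these letters, and of the 14 cholesterol synthesis genes with an entry only Hmgcs1 does. The CCAAT box, on either strand, is in all 14, against 37.5% of all genes. For the E-box CACGTG the count is 3 of 14 cholesterol synthesis genes, 2 of 18 fatty acid synthesis genes and 5 of 15 ChREBP-linked genes, against 6.86% of all genes. Genes with several starts were counted once if any window held the letters.

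**Figure D3:**
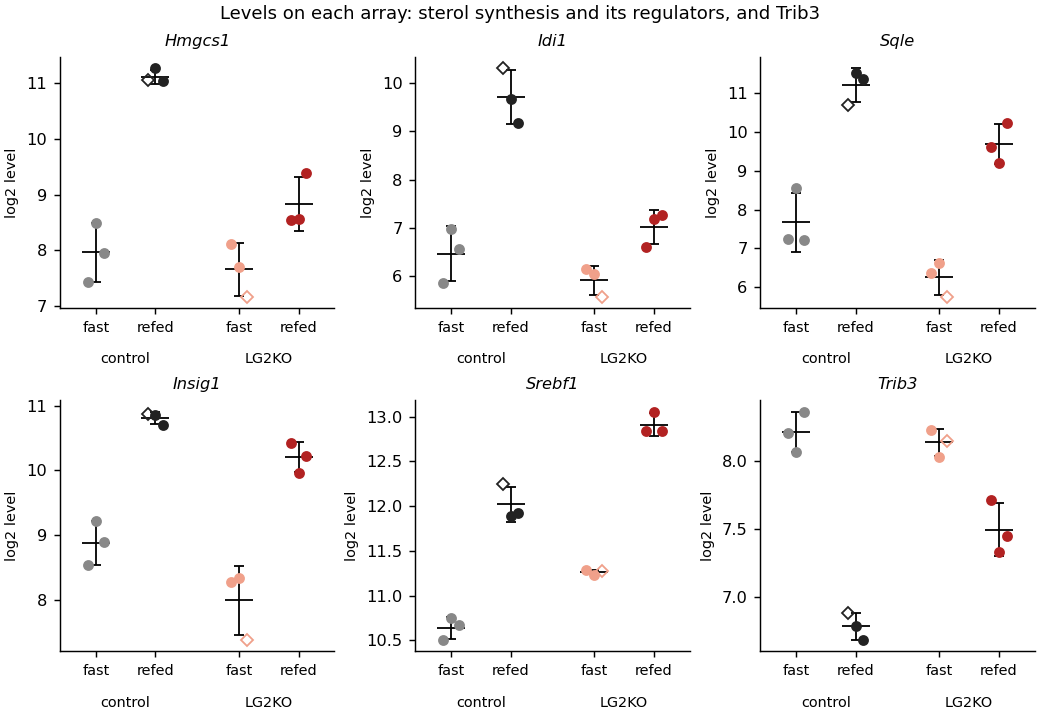
Log2 level on each array for 6 genes, laid out as for the glycolytic and lipogenic genes. Hmgcs1 and Idi1 separate the genotypes in the refed arrays, Sqle and Insig1 rise in both, and Trib3 is lower on control refed than on LG2KO refed arrays.

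Interactions above 0 did not pass for any gene. At an unadjusted p below 0.05, 642 of 18194 genes (3.53%) were above 0 and 219 (1.2%) below it. Without the pair these were 741 (4.07%) and 782 (4.3%), so there was no surplus above 0. Slc2a1, the glucose transporter Glut1, had the smallest p on that side. It was at 8.83, 8.70 and 8.61 in control fasted, 7.84, 8.10 and 7.99 in control refed, 8.16, 8.15 and 8.13 in LG2KO fasted and 8.32, 8.56 and 8.22 in LG2KO refed livers. It fell in controls by 0.73 ± 0.11 (adjusted p = 0.00197), its LG2KO response was 0.22 ± 0.11 (adjusted p = 0.362), and the interaction was 0.95 ± 0.16 (adjusted p = 0.174). The arrays moved in opposite directions without overlap, with the fasted LG2KO arrays below the fasted controls and the refed ones above. Trib3, a pseudokinase that binds Akt and is raised by stress and fasting, was at 8.21, 8.07 and 8.36 in control fasted, 6.88, 6.79 and 6.69 in control refed, 8.23, 8.03 and 8.15 in LG2KO fasted and 7.71, 7.33 and 7.45 in LG2KO refed livers. It fell in both genotypes, by 1.43 ± 0.13 (adjusted p = 3.11e-05) and by 0.64 ± 0.13 (adjusted p = 0.00861), and the difference of 0.79 ± 0.18 did not pass (adjusted p = 0.409). Irs2, an insulin receptor substrate that fasting raises, fell in controls by 0.98 ± 0.19 (adjusted p = 0.00729), with an LG2KO response of -0.19 ± 0.19 and an interaction of 0.79 ± 0.26 (adjusted p = 0.878).

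Lbp, the lipopolysaccharide-binding protein of the acute phase, fell with refeeding in controls by 0.60 ± 0.08 (adjusted p = 0.000709). Its levels were 12.02, 11.88 and 11.80 in control fasted, 11.34, 11.30 and 11.25 in control refed, 11.78, 11.69 and 11.93 in LG2KO fasted and 11.74, 11.90 and 11.94 in LG2KO refed livers. Only the control refed arrays stood apart, and the interaction was 0.67 ± 0.12 (adjusted p = 0.174). The whole acute phase list leaned the same way. Of 26 measured genes 25 had an interaction above 0, while 45.2% of all genes were below 0. The median was 0.21, none passed, and 2 reached an unadjusted p below 0.05 on that side (background 3.53%), which were 8 without the pair (background 4.07%). Macrophage markers also leaned above 0, at 13 of 14, with a median of 0.33 and none passing. So did endothelial markers (11 of 14, median 0.11), lymphocyte and neutrophil markers (10 of 14, median 0.08) and adipose markers (6 of 8, median 0.20). Hepatocyte markers (4 of 12) and cholangiocyte markers (3 of 9) did not. The mean log2 level of the macrophage list ranged from 8.96 to 9.40 in control fasted, 8.88 to 9.07 in control refed, 8.71 to 9.14 in LG2KO fasted and 8.92 to 9.28 in LG2KO refed livers. These ranges overlap, and the part of macrophages in the acute phase values was not tested. Without the pair the medians were 0.31 for the acute phase list and 0.24 for macrophage markers. Endothelial markers were then above 0 in only 8 of 14 (median 0.04). Lymphocyte and neutrophil markers were above 0 in 12 of 14 (median 0.10) and adipose markers in 5 of 8 (median 0.32). Exocrine pancreas markers had a median interaction of 0.85, which was -0.01 without control fasted replicate 3, the array where they were high.

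Outside these groups, the genes next in rank were picked after their values were seen. Ttc23 and Lrrc28, which lie next to each other in the RefSeq annotation, moved together. Ttc23 was at 8.42, 8.27 and 8.66 in control fasted, 8.54, 8.69 and 8.45 in control refed, 9.35, 9.55 and 9.36 in LG2KO fasted and 8.40, 8.43 and 8.58 in LG2KO refed livers. Only the LG2KO fasted arrays stood apart. Ttc23 fell in LG2KO livers by 0.95 ± 0.12 (adjusted p = 0.000457) and Lrrc28 by 0.94 ± 0.13 (adjusted p = 0.000762), against control responses of 0.11 and 0.00 in size. The interactions were -1.05 ± 0.17 (adjusted p = 0.132) and -0.94 ± 0.18 (adjusted p = 0.261). Glycogen genes had a median interaction of -0.28, with 11 of 16 below 0 (background 45.2%) and none passing. At an unadjusted p below 0.05, 4 of them were below 0 (background 1.2%) and 0 above it (background 3.53%). Without the pair, 5 glycogen genes were below 0 (background 4.3%) and 0 above it (background 4.07%) at that level. Among them Pygl, liver glycogen phosphorylase, had an interaction of -0.60 ± 0.16 (adjusted p = 0.647). Ppp1r3g, a glycogen-targeting subunit of protein phosphatase 1, fell with refeeding in both genotypes, by 1.21 ± 0.22 and by 2.07 ± 0.22.

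The folding machinery responded in both genotypes. Of 21 measured genes of the unfolded protein response, 13 rose in each genotype (backgrounds 3.29% in controls and 4.66% in LG2KO livers), the median responses were 0.75 and 0.87, and 7 were kept within 1.5-fold (background 2.31%), with a median interaction of 0.02. Hyou1, a chaperone of the endoplasmic reticulum, was at 10, 10.01 and 9.57 in control fasted, 11.54, 11.71 and 11.66 in control refed, 10.11, 10.27 and 9.96 in LG2KO fasted and 11.82, 11.98 and 11.90 in LG2KO refed livers. It rose by 1.78 ± 0.12 and 1.79 ± 0.12, with an interaction of 0.01 ± 0.17. Manf, a secreted protein induced by stress of the same compartment, rose by 1.64 ± 0.11 and 1.54 ± 0.11. Of 19 cytosolic chaperone genes, 10 rose in controls (background 3.29%), 9 rose in LG2KO livers (background 4.66%) and 6 were kept (background 2.31%). Their median interaction was -0.08 with 13 genes below 0 (background 45.2%). Without the pair the median was -0.18 and 18 of 19 were below 0, none passing. Fkbp4 and Stip1, partners of Hsp90, rose by 1.30 and 1.40 and by 1.26 and 1.28.

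Kept responses also included structural and metabolic genes. Tubb4b, a beta tubulin, rose by 1.85 and 1.79, Dynll1, a dynein light chain, by 1.87 and 1.70, and Papss1, which makes the sulphate donor, by 1.32 and 1.47. In the falling direction, Cpt1a, the gate of mitochondrial fat oxidation, was at 11.71, 11.90 and 11.97 in control fasted, 10.59, 10.61 and 10.48 in control refed, 11.71, 11.81 and 11.60 in LG2KO fasted and 10.81, 10.38 and 10.38 in LG2KO refed livers. It fell by 1.30 ± 0.11 and by 1.18 ± 0.11, and the interaction of 0.12 ± 0.16 lay within 1.5-fold. Mfsd2a, a transporter of lysophospholipids that fasting raises, fell by 1.89 ± 0.18 and by 1.91 ± 0.18. Cyp8b1, the sterol 12-alpha-hydroxylase of bile acid synthesis, fell by 0.98 ± 0.15 and by 1.07 ± 0.15. The 19 PPARalpha targets had median responses of -0.35 and -0.36, with 5 and 4 falling (backgrounds 3.17% and 2.4%) and 2 kept (background 2.31%). Without the pair their medians were -0.11 in controls and -0.42 in LG2KO livers, with 6 and 5 falling, and again 2 were kept. The 17 genes of glucose production had medians of -0.33 and -0.32, with 7 falling in each (backgrounds 3.17% and 2.4%). Without the pair their medians were -0.33 and -0.37, with 8 and 9 falling. The backgrounds without the pair were 1050 of 18194 genes falling in controls and 1779 in LG2KO livers. Of the 20 genes named as kept, 9 stayed so under all 21 alternatives, namely Cpt1a, Dynll1, Fkbp4, Hes6, Hyou1, Manf, Papss1, Stip1 and Tubb4b. Among the other 11, Mfsd2a stayed so under only 3, since its interval lies close to the limit.

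**Figure D4:**
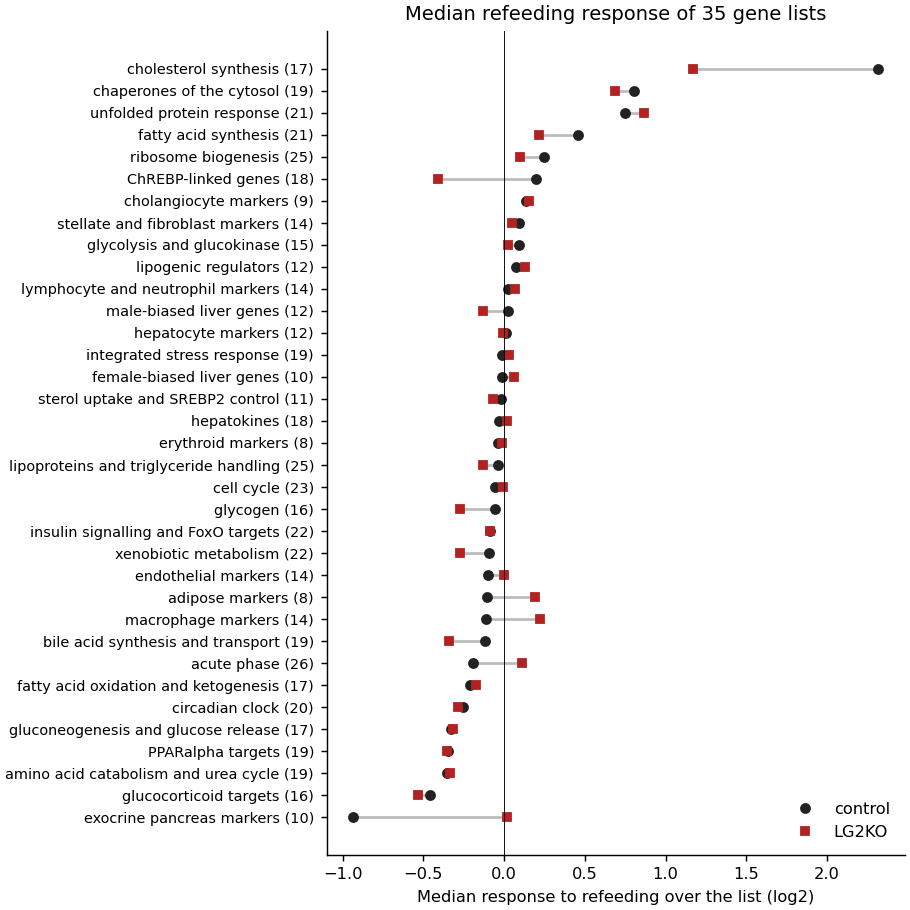
Median response to refeeding (log2) of 35 gene lists, controls as circles and LG2KO livers as squares, with the number of measured genes in brackets. Cholesterol synthesis is highest in controls at 2.32 against 1.17 in LG2KO livers, and the medians of the unfolded protein response lie close together. The median of the ChREBP-linked genes is 0.19 in controls and -0.41 in LG2KO livers. That list is mixed, with 5 genes called up and 2 down in controls, and 3 up and 6 down in LG2KO livers.

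**Figure D5:**
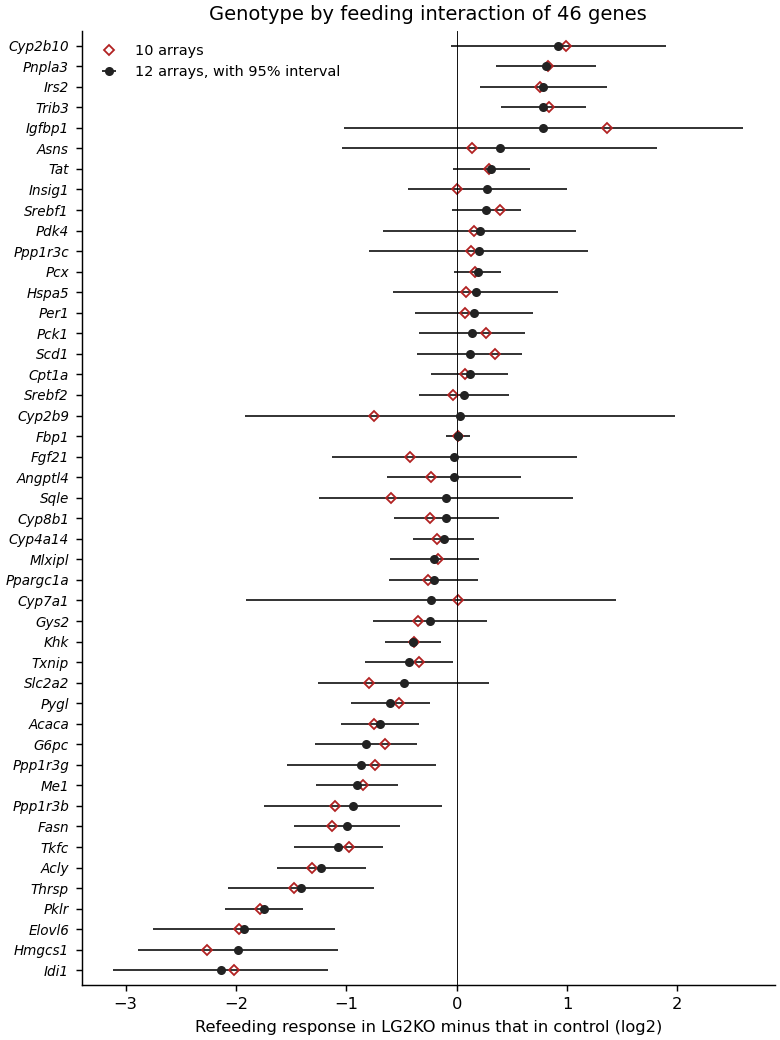
Interaction of genotype and feeding (log2) for 46 genes chosen with earlier results known, with 95% intervals on 12 arrays as circles and bars, and the 10-array values as diamonds. Intervals are for single genes and not adjusted, and of the genes shown only Pklr passes after adjustment.

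An interaction adds the errors of 4 group means, so its standard error had a median of 0.19, against 0.13 for a response within controls. At an adjusted p below 0.10 there were 2 genes, Pklr and Aacs, and below 0.20 there were 8. A response that did not pass here is not shown to be equal in the genotypes unless its interval is narrow, which is what the kept class requires.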

How the data were processed

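The deposited log2 expression values come from RMA, per the submitters' processing notes, a method that corrects background, equalises the arrays' distributions and pools a set's probes. No version or build was stated there. Of 45101 probe sets, 34958 had 1 gene symbol in the platform annotation, 932 had several and 9211 were not listed. For a symbol with several, the set with the highest mean across the 12 arrays stood for the gene, leaving 18194 genes, with no filter on dim genes. The interaction, the responses and the genotype differences came from limma 3.58.1 in R 4.3.3, with 1 mean per group, an intensity trend and 8 residual degrees of freedom (6 on 10 arrays). Tests were two-sided, with Benjamini-Hochberg adjustment across the genes of each comparison. They measure the spread between pools. Errors of differences are standard errors.

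Genes named are 46 fixed genes, the largest interactions that passed, the smallest p-values of lists with a passing gene, the 10 strongest kept rises and falls, and 20 genes of smallest interaction p chosen after values were seen. Other list members serve as examples. The members and the 35 lists were chosen with earlier results of these data known. The fit was tested on simulated data. Upstream sequences are from the RefSeq table of GRCm38.p6. The number of arrays limits the precision. Alternatives changed the variance estimate, array weights, probe set rule, scaling, low genes and arrays left out. Figures used matplotlib 3.10.9 in Python 3.11.15.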

Additional observations from a re-analysis of the deposited data

Results flagged for a closer look

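Pklr was picked out because the effect of refeeding differed between genotypes by the test of the difference itself, with an interaction of -1.75 (adjusted p = 0.0024 in limma). All 3 LG2KO refed arrays were below all 3 LG2KO fasted arrays, and all 3 control refed arrays were above all 3 control fasted arrays. Groups of 3 arrays are too small to test single arrays as outliers.

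A probe set with no gene name in the annotation used here, and so outside the gene tests, was picked out when all 45101 probe sets were tested singly, a test added after seeing the data. Its interaction was 0.994 on the log2 scale, with a standard error of 0.125 (adjusted p = 0.0278 in limma). It fell with refeeding by 1.72 in controls and by 0.72 in LG2KO livers. Its control refed arrays were at 11.49, 11.41 and 11.51, below the LG2KO refed arrays at 12.36, 12.20 and 12.36. The fasted groups were close, at 12.96 to 13.35 and 12.95 to 13.07. In that test 5 probe sets passed, which were 3 of Pklr, 1 of Aacs and this one.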

How the results depend on the processing

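The interaction of Pklr passed under all 21 alternatives, from -1.57 to -1.85. With array weights, which gave control refed replicate 1 and LG2KO fasted replicate 3 weights of 0.245 and 0.255, the interaction had 20 calls, and it had 2 with robust estimation, 2 with cyclic loess and 1 to 2 with single arrays left out (2 without control refed replicate 3, where Ccdc25 was added). Whether the replicate numbers pair the samples was not settled. Deviations from the group means were correlated above 0.1 in 6 of 18 same-numbered pairs, and 6 arrays correlated best with their own number. Same-numbered correlations ran from -0.46 to 0.77, and deviations within groups of 3 arrays cannot decide the question. With a replicate block there were 6 calls (Pklr, Aacs, Acly, Klf10, Me1 and Mid1ip1). Array weights gave 2454 control calls, 3578 LG2KO calls, 203 fasted and 180 refed genotype calls, 1136 kept, 4 reversed, 10 blunted and 6 stronger responses. Leaving out the pair gave 2202, 3187 and 929 kept, and fitting only the 6 control arrays gave 695 control calls. The refed genotype count of 69 was 41 without the trend and 43 with robust estimation. Blunted responses were 1 with robust estimation, 1 with cyclic loess and 3 with the replicate block, which also gave 2 reversed and 1 stronger. Over single arrays left out, the counts ran from 706 to 1467 for controls, 697 to 1803 for LG2KO livers, 30 to 97 for the fasted and 8 to 47 for the refed genotype difference, 243 to 644 kept and 0 to 1 blunted. Among the medians, ChREBP-linked genes were at -0.29 and cholesterol synthesis at -1.07 without the pair; with single arrays left out they ran from -0.35 to -0.15 and -0.99 to -0.44, and fatty acid synthesis from -0.52 to -0.26. These list ranges were added after seeing the data. The cause of these shifts was not tested.

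Genes whose interaction lay near 0 changed its sign under some alternatives, and none of them passed. Over single arrays left out, Angptl4 ran from -0.23 to 0.16, Asns from -0.017 to 0.96, Cpt1a from -0.026 to 0.19, Cyp2b9 from -0.59 to 0.71, Cyp7a1 from -0.66 to 0.39, Cyp8b1 from -0.30 to 0.019, Fbp1 from -0.014 to 0.025, Fgf21 from -0.49 to 0.29 and Hspa5 from -0.12 to 0.46. Igfbp1 ran from -0.16 to 1.49, Insig1 from -0.027 to 0.45, Pck1 from -0.078 to 0.32, Pdk4 from -0.053 to 0.42, Ppp1r3c from -0.18 to 0.60, Scd1 from -0.036 to 0.33, Sqle from -0.53 to 0.15 and Srebf2 from -0.073 to 0.17. With array weights Asns was at -0.012, Cyp2b9 at -0.21, Cyp7a1 at 0.25, Ppp1r3c at -0.073 and Srebf2 at -0.0088. Without the pair Cyp2b9 was at -0.75, Cyp7a1 at 0.011 and Srebf2 at -0.029. Cyp2b9 was at -0.032 with cyclic loess, and Angptl4 at 0.055 with the mean of all its probe sets.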
